A study of Mus musculus with 16 samples.

Results

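Histone genes, taken as all genes named Hist1h, Hist2h, Hist3h, Hist4h, H2af, H3f or H1f, were followed on tagged ribosomes of prepronociceptin (Pnoc) neurons of the mouse hypothalamus. Of 91 genes with such names in the GENCODE M21 annotation, 28 were listed as different between immunoprecipitate and input in at least 1 diet. There were 27 (29.7% of the annotated names) in mice on a high-fat diet, 26 (28.6%) in mice on chow and 25 in both. These shares lie near those of all tests that were listed, 27% on the high-fat diet and 27.6% on chow. The latter are shares of the number of tests implied by the authors' p-values and q-values, not of annotated names. That number assumes that the q-values were adjusted over both tables together and no other comparison, which is not stated. The mice, aged 10 to 12 weeks and of strain C57BL/6N, all carried the PNOC-L10a-EGFP transgene, a fusion of ribosomal protein L10a with a green fluorescent protein made for BacTRAP, the capture of ribosomes of 1 cell type from whole tissue. They were given either a high-fat diet (HFD) or chow (CD, called control diet in the sample labels) for 3 days. For each diet there were 4 immunoprecipitate (IP) libraries, made from RNA held by the tagged ribosomes, and 4 input libraries of the hypothalamus, which makes 16 libraries in 4 groups. How many animals went into a library is not given in the sources used here, so the q-values measure only the spread between these libraries.

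The data are the authors' group values, 1 FPKM (a fragment count corrected for transcript length and library size) for each group and diet, with no value per library and no depth. Only differences with a q-value under 0.05 were listed, so a gene absent from a table may have been untested, too low or not significant, and cannot be called unchanged. "Enriched" below means that the immunoprecipitate was above the input in a listed comparison, and "depleted" that it was below. Folds are log2 of the immunoprecipitate FPKM over the input FPKM, and each standard error (SE) was recovered from the authors' deposited statistic. Pnoc itself, the gene whose cells were targeted, had 19.8 FPKM in the immunoprecipitate and 4.35 FPKM in the input on the high-fat diet, and 19.9 FPKM in the IP and 4.62 FPKM in the input on chow. All 9 listed neuron markers of 10 were enriched in each diet. Markers of oligodendrocytes (8 of 8) were depleted, with a summed level in the immunoprecipitate of 11.5% of the input on the high-fat diet and 11.1% on chow. Those of astrocytes (8 of 8) were depleted with sums at 42.9% on the high-fat diet and 41.5% on chow, or 12.7% and 12.6% without Aldoc, which held most of the sum. All 6 listed microglia markers were depleted too, with their sums at 8.72% of the input on the high-fat diet and 9.02% on chow. So were all 5 listed oligodendrocyte precursor markers of 6, with sums at 12.8% and 10.8%. Of 8 endothelial and mural markers, 5 were depleted and 1 enriched on the high-fat diet, and 6 and 1 on chow. The enriched gene was Itm2a, at a log2 fold of 0.58 on the high-fat diet and 0.73 on chow. Their sums were at 36.9% and 41.3%, or 12.4% and 19.0% without Itm2a. The parts that fewer cells of a type and less RNA per cell play in a bulk level cannot be told apart.

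DNA is wound around octamers of the core histones H2A, H2B, H3 and H4, and the linker histone H1 binds where it enters and leaves. Most core histones are encoded by clusters of near-identical copies that are transcribed mainly during DNA replication; their mRNAs usually end in a conserved stem-loop, bound by the stem-loop binding protein Slbp, in place of a poly(A) tail. Replacement variants such as H2A.Z and macroH2A lie outside the clusters, are polyadenylated and are made throughout the cell cycle, which makes them the main newly made histones of neurons, cells that no longer divide. Some cluster copies are known to give polyadenylated transcripts in differentiated cells.

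The stem-loops of 3 depleted genes, of 7 enriched cluster copies and of the variant H2afx are shown because some depleted and enriched copies share the same letters. In several annotated transcripts they lie well before the end, and none was found in those of the depleted Hist1h2bc and Hist2h2be. They were read 5′ to 3′ from the GENCODE M21 transcripts (GRCm38), and capitals mark the 16 bases that match the histone stem-loop consensus.
Hist1h1c (depleted, chr13:23739507-23739532, plus strand): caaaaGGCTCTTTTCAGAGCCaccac
Hist1h2ac (depleted, chr13:23683472-23683497, minus strand): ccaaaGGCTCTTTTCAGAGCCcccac
Hist2h3c2 (depleted, chr3:96238480-96238505, minus strand): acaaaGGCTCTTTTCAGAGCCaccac
Hist1h2bg (enriched, chr13:23571838-23571863, plus strand): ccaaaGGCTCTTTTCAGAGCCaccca
Hist3h2ba (enriched, chr11:58949344-58949369, plus strand): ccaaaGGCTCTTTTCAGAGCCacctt
Hist1h3e (enriched, chr13:23561898-23561923, minus strand): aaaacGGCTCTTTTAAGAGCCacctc
Hist2h2ac (enriched, chr3:96220413-96220438, minus strand): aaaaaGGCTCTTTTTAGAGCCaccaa
Hist1h4f (enriched, chr13:23551286-23551311, minus strand): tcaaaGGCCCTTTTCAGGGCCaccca
Hist1h4d (enriched, chr13:23581945-23581970, plus strand): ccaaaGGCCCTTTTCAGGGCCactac
Hist2h4 (enriched, chr3:96262934-96262959, minus strand): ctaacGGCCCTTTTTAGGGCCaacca
H2afx (enriched, chr9:44335235-44335260, plus strand): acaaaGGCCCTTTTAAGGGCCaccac
All 3 depleted copies with a stem-loop had the 16 bases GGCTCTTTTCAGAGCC, and so did the enriched copies Hist1h2bg and Hist3h2ba. The form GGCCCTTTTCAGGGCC was present in 5 listed genes, all of them H4 copies and all enriched. A stem-loop was found in 18 of the 28 listed genes and in 28 of the 63 that were not listed. These counts took the longest annotated transcript of each gene and the bases after the stop codon. Of all 141767 annotated transcripts 0.0783% held the motif at any position, so the 2 shares were not counted alike. Some annotated transcripts end near the stop codon, such as that of the unlisted Hist1h4k with 312 bases, 309 of them coding. A stem-loop may therefore be missing from the annotation alone. Among cluster copies a stem-loop was found in 3 of 5 depleted and in 14 of 18 enriched genes.

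Of the replacement variants, 5 were listed in each diet, all of them enriched, and none reached a 2-fold difference. Beside this, 55.2% of all listed tests on the high-fat diet and 53.8% of those on chow were enriched. H2afz, which encodes H2A.Z, had the highest level of all listed histone genes, with 242 FPKM in the immunoprecipitate and 144 FPKM in the input on the high-fat diet, and 265 FPKM in the IP and 139 FPKM in the input on chow. Its log2 fold was 0.74 (SE 0.30) on the high-fat diet and 0.93 (SE 0.29) on chow. Other annotated genes share 69.6% of its 50-base stretches, so its reads are less certain than those of the other variants.

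H2afx encodes H2A.X, which is phosphorylated around DNA breaks. It had 20.4 FPKM in the immunoprecipitate and 11.02 FPKM in the input on the high-fat diet, and 21.1 FPKM in the IP and 11.05 FPKM in the input on chow. Its log2 fold was 0.89 (SE 0.28) on the high-fat diet and 0.93 (SE 0.27) on chow, where it did not differ from that of H2afz beyond the SE. Unlike the other listed variants it has a stem-loop, the last sequence shown above, 822 bases before the end of the annotated transcript.

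H2afy and H2afy2 encode the macroH2A proteins, H2A forms with a large extra domain that are linked to silent chromatin. H2afy had 38.8 FPKM in the immunoprecipitate and 26.9 FPKM in the input on the high-fat diet, and 40.4 FPKM in the IP and 28.4 FPKM in the input on chow. H2afy2 was lower, with 8.90 FPKM in the IP and 5.77 FPKM in the input on the high-fat diet and 7.73 FPKM in the IP and 4.93 FPKM in the input on chow. The log2 fold of H2afy was 0.53 (SE 0.26) on the high-fat diet and 0.51 (SE 0.25) on chow, and that of H2afy2 was 0.62 (SE 0.34) and 0.65 (SE 0.36), so both were enriched and their errors overlap. The deposited spans of H2afy and H2afy2 run 71354 and 23402 bases past the annotated genes, so their values may hold reads of neighbours.

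H1f0 encodes H1.0, the linker histone that accumulates in cells that have stopped dividing. It had 47.7 FPKM in the immunoprecipitate and 37.4 FPKM in the input on the high-fat diet, and 49.99 FPKM in the IP and 39.9 FPKM in the input on chow. Its log2 folds of 0.35 (SE 0.23) on the high-fat diet and 0.33 (SE 0.23) on chow were the lowest of the enriched histone genes. In the authors' deposited table its q-value was 0.0158 on the high-fat diet and 0.0336 on chow. Its deposited span runs 1994 bases past the annotated gene, so its values may hold reads of neighbours. The median fold over all listed tests with at least 1 FPKM was itself 0.42 on the high-fat diet and 0.41 on chow, and relative to that median H1f0 lay at -0.07 on the high-fat diet and -0.09 on chow. On the same scale the other variants lay between 0.11 (H2afy) and 0.47 (H2afx) on the high-fat diet and between 0.0996 (H2afy) and 0.52 (H2afx) on chow. The H3.3 genes H3f3a and H3f3b, and H2afv, H2afj and H1fx, were not listed in either diet.

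**Figure D1:**
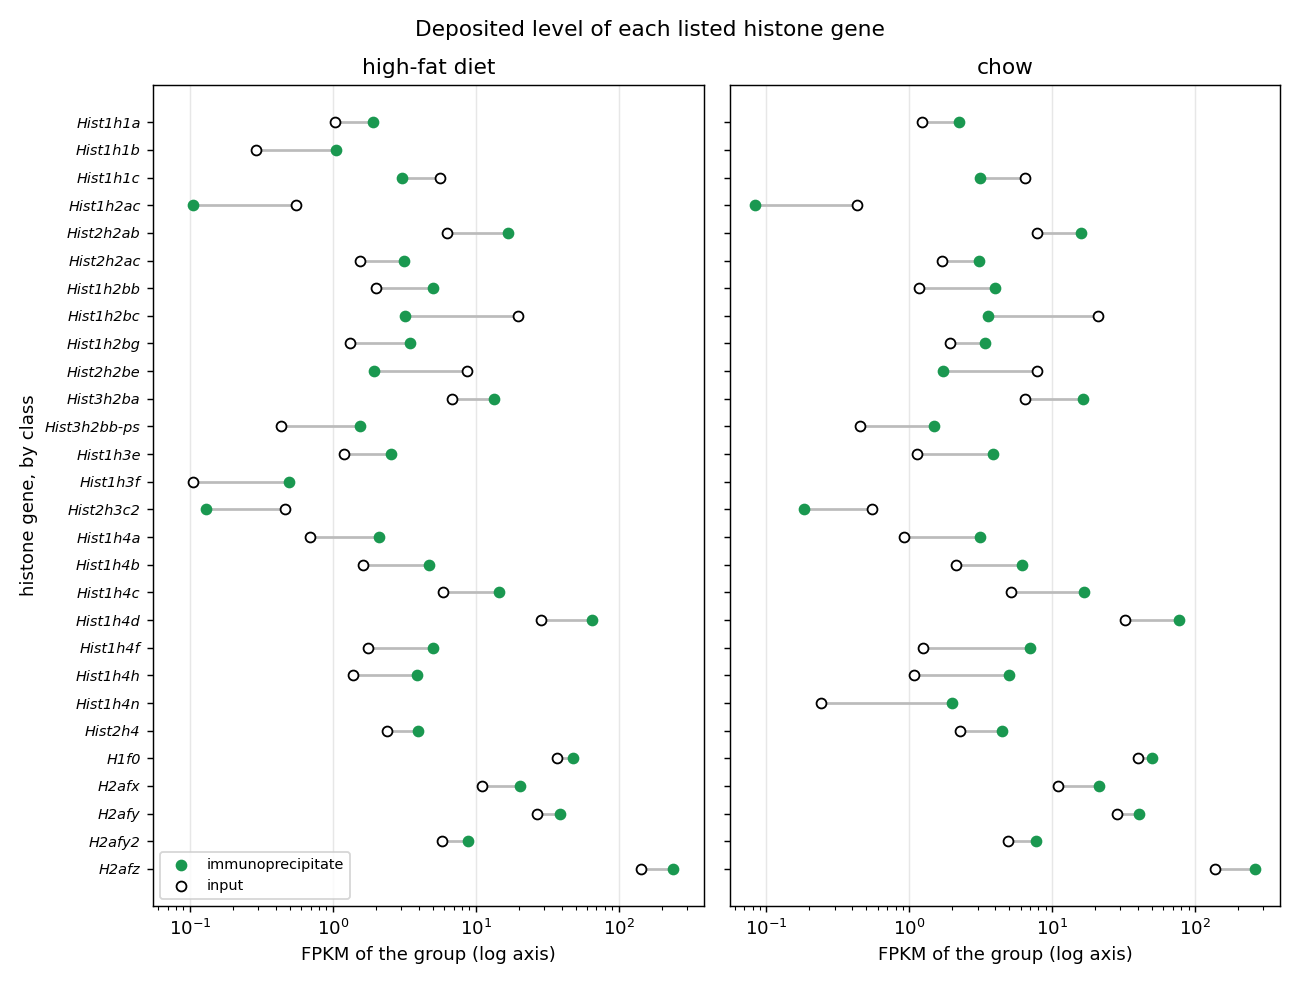
Deposited FPKM (log axis) of every listed histone gene in the immunoprecipitate (filled) and the input (open), with the high-fat diet on the left and chow on the right; each point is 1 group value of the authors, so there are no error bars. H2afz stands highest at 242 and 265 FPKM in the immunoprecipitates, and Hist1h1c, Hist1h2ac, Hist1h2bc, Hist2h2be and Hist2h3c2 are the genes whose filled point lies left of the open one.

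The cluster copies split into a larger enriched and a smaller depleted set. On the high-fat diet 17 of 22 listed copies were enriched and 5 were depleted, and on chow 16 of 21 were enriched and 5 depleted. For depletion, the share of all listed tests was 44.8% on the high-fat diet and 46.2% on chow. With the variants included, 14 of 27 histone genes (51.9%) were enriched at least 2-fold on the high-fat diet and 12 of 26 (46.2%) on chow, while 3.24% of all listed tests reached that fold on the high-fat diet and 4.38% on chow. Depletion of at least 2-fold was found for 4 histone genes (14.8%) on the high-fat diet and 5 (19.2%) on chow, against 28.2% and 28.7% of all listed tests. The median log2 fold of the listed histone genes was 1.02 on the high-fat diet and 0.96 on chow, and that of all listed tests with a finite fold was 0.39 on the high-fat diet and 0.37 on chow. A gene with a low level enters such a list only with a large fold. The part of low levels in these shares was not tested.

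The listed H4 genes moved in one direction. Of 13 annotated copies, all 7 listed on the high-fat diet and all 8 listed on chow were enriched. Among all listed tests, 55.2% were enriched on the high-fat diet and 53.8% on chow. The median log2 fold of the listed H4 copies was 1.496 on the high-fat diet and 1.72 on chow. The copies that were not listed have no value here. Each copy encodes the same core histone, and the coding sequences of the 8 copies, 309 bases each, were 88.0% to 97.4% identical between copies (median 94.0% over 28 pairs). Reads within the coding part can therefore be split among copies. Hist1h4d had most of the signal, with 64.9 FPKM in the immunoprecipitate and 28.5 FPKM in the input on the high-fat diet, and 77.1 FPKM in the IP and 32.5 FPKM in the input on chow. It carried 65.4% of the summed H4 FPKM of the immunoprecipitate on the high-fat diet and 63.5% on chow. With log2 folds of 1.19 (SE 0.25) on the high-fat diet and 1.24 (SE 0.25) on chow, it had the smallest errors of the cluster copies, and only 10.2% of its 50-base stretches occur in other genes.

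The H4 copies with the highest folds had lower levels than Hist1h4d, and the order of folds depended on the scale. On the high-fat diet it was Hist1h4a, with 2.09 FPKM in the immunoprecipitate and 0.688 FPKM in the input (log2 fold 1.61, SE 0.88), against 3.10 FPKM in the IP and 0.923 FPKM in the input on chow (1.75, SE 0.75). On chow it was Hist1h4n, which was not listed on the high-fat diet, with 1.97 FPKM in the immunoprecipitate and 0.239 FPKM in the input (3.05, SE 1.38). The q-value of Hist1h4n in the authors' deposited table was 0.0354, and 85.6% of its 50-base stretches are shared with other genes. Hist1h4f followed on chow with 7.002 FPKM in the IP and 1.25 FPKM in the input (2.49, SE 0.80), and had 5.06 FPKM in the IP and 1.76 FPKM in the input on the high-fat diet (1.52, SE 0.75). The errors of these copies overlap one another. With 1 FPKM added to both values, Hist1h4a lay at 0.87 on the high-fat diet, below Hist1h4c at 1.19 and Hist1h4d at 1.16, and Hist1h4n lay at 1.26 on chow, below Hist1h4f at 1.83.

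Hist2h4 had the lowest fold of the H4 copies and almost no shared sequence, with 1.01% of its 50-base stretches found elsewhere. It had 3.96 FPKM in the immunoprecipitate and 2.41 FPKM in the input on the high-fat diet (log2 fold 0.72, SE 0.38), and 4.48 FPKM in the IP and 2.27 FPKM in the input on chow (0.98, SE 0.37). Hist2h4 and Hist1h4d, the least shared H4 copies, were both enriched. Summed over listed copies, H4 reached 99.3 FPKM in the immunoprecipitate and 42.2 FPKM in the input on the high-fat diet, a ratio of 2.35, and 121 FPKM in the IP and 45.6 FPKM in the input on chow, a ratio of 2.67. Without Hist1h4d the ratio was 2.50 on the high-fat diet and 3.40 on chow. Every listed copy was enriched, so any such sum had to lie above the input. Relative to the median fold of listed tests, all listed H4 copies still lay above zero, the lowest being Hist2h4 at 0.30 on the high-fat diet and 0.57 on chow.

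The H2B genes went both ways. Of 6 listed, 4 were enriched and 2 depleted in each diet. Hist1h2bc had the lowest fold of all listed histone genes, with 3.19 FPKM in the immunoprecipitate and 19.9 FPKM in the input on the high-fat diet (log2 fold -2.64, SE 0.35), and 3.54 FPKM in the IP and 20.8 FPKM in the input on chow (-2.55, SE 0.33). Its immunoprecipitate held 16.02% of the input level on the high-fat diet and 17.0% on chow. It ranked 16 among the listed histone genes in the immunoprecipitate and 5 in the input, in both diets. Hist2h2be was depleted as well, with 1.95 FPKM in the immunoprecipitate and 8.67 FPKM in the input on the high-fat diet (-2.16, SE 0.32), and 1.72 FPKM in the IP and 7.85 FPKM in the input on chow (-2.19, SE 0.32). No 50-base stretch of Hist2h2be occurs in another annotated gene, whereas 30.6% of those of Hist1h2bc occur in others, 220 genes in all. The H2B values stood beside the low astrocyte, oligodendrocyte and microglia sums given above. All 4 listed nuclear non-coding RNAs of 7 were depleted too, with sums at 3.46% of the input on the high-fat diet and 2.81% on chow, or 8.12% and 8.72% without Malat1. The part of other cell types and of nuclear RNA in the H2B values was not tested.

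The enriched H2B genes had the opposite pattern at lower input levels. Hist1h2bb had 5.04 FPKM in the immunoprecipitate and 2.02 FPKM in the input on the high-fat diet (log2 fold 1.32, SE 0.62), and 3.98 FPKM in the IP and 1.17 FPKM in the input on chow (1.76, SE 0.71). Hist3h2ba was the most abundant H2B copy in the immunoprecipitate, with 13.4 FPKM against 6.87 FPKM in the input on the high-fat diet (0.97, SE 0.40), and 16.3 FPKM against 6.44 FPKM in the input on chow (1.34, SE 0.38). The neighbouring Hist3h2bb-ps, annotated as a processed pseudogene, had 1.55 FPKM in the IP and 0.435 FPKM in the input on the high-fat diet (1.84, SE 1.07), and 1.48 FPKM in the IP and 0.451 FPKM in the input on chow (1.71, SE 1.02). Coding sequences were compared among listed copies only. Of the H2B copies compared, Hist1h2bg was the closest to the depleted Hist1h2bc, with 98.7% identical coding bases. Hist1h2bg was enriched, with 3.47 FPKM in the immunoprecipitate and 1.32 FPKM in the input on the high-fat diet (1.40, SE 0.64). On chow it had 3.38 FPKM in the IP and 1.93 FPKM in the input (0.81, SE 0.56). Other genes share 49.7% of the 50-base stretches of Hist1h2bg and 40.1% of those of Hist1h2bb, so the split of their reads is uncertain. In the authors' deposited table the q-value of Hist1h2bg was 0.0019 on the high-fat diet and 0.0204 on chow. Summed, H2B was the core class with less in the immunoprecipitate than in the input, 28.6 FPKM in the IP against 39.2 FPKM in the input on the high-fat diet (ratio 0.729) and 30.4 FPKM in the IP against 38.6 FPKM in the input on chow (0.787). That direction rested on Hist1h2bc, since the ratio without it was 1.32 on the high-fat diet and 1.51 on chow.

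The H2A copies split 2 enriched to 1 depleted in each diet. Hist1h2ac was depleted at a low level, with 0.105 FPKM in the immunoprecipitate and 0.556 FPKM in the input on the high-fat diet (log2 fold -2.41, SE 0.79), and 0.0829 FPKM in the IP and 0.428 FPKM in the input on chow (-2.37, SE 0.84). Hist2h2ab had 16.9 FPKM in the immunoprecipitate and 6.35 FPKM in the input on the high-fat diet (1.41, SE 0.70), and 15.9 FPKM in the IP and 7.81 FPKM in the input on chow (1.03, SE 0.67). Its deposited span runs 23277 bases past the gene, over Bola1 and the antisense Gm15444, and the strand setting of the counting is not given in the sources used here. Hist2h2ac had 3.14 FPKM in the IP and 1.55 FPKM in the input on the high-fat diet (1.02, SE 0.69), and 3.09 FPKM in the IP and 1.69 FPKM in the input on chow (0.87, SE 0.66). It shares 55.0% of its 50-base stretches with other genes.

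Of the H3 copies, Hist1h3f and Hist2h3c2 were below 1 FPKM in every group in which they were listed, and Hist1h3e was higher. Hist1h3e was enriched, with 2.57 FPKM in the immunoprecipitate and 1.20 FPKM in the input on the high-fat diet (log2 fold 1.10, SE 0.59), and 3.83 FPKM in the IP and 1.13 FPKM in the input on chow (1.76, SE 0.55). Hist1h3f was listed on the high-fat diet alone, with 0.497 FPKM in the IP and 0.104 FPKM in the input (2.25, SE 1.16). Hist2h3c2 was depleted, with 0.130 FPKM in the IP and 0.466 FPKM in the input on the high-fat diet (-1.84, SE 1.18), and 0.183 FPKM in the IP and 0.550 FPKM in the input on chow (-1.59, SE 0.97). Coding sequences of these copies were 94.6% to 98.8% identical, and 63.5% of the 50-base stretches of Hist2h3c2 occur in other genes, so the split of reads between them is uncertain.

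Of the linker histones of the clusters, Hist1h1c, which encodes H1.2, was depleted. It had 3.03 FPKM in the immunoprecipitate and 5.66 FPKM in the input on the high-fat diet (log2 fold -0.90, SE 0.36), and 3.11 FPKM in the IP and 6.47 FPKM in the input on chow (-1.05, SE 0.33). Hist1h1a, the gene of H1.1, was enriched, with 1.93 FPKM in the IP and 1.03 FPKM in the input on the high-fat diet (0.91, SE 0.67), and 2.23 FPKM in the IP and 1.22 FPKM in the input on chow (0.87, SE 0.60). Hist1h1b, the gene of H1.5, was listed on the high-fat diet alone, with 1.05 FPKM in the IP and 0.291 FPKM in the input (1.86, SE 1.04). In the authors' deposited table the q-values on the high-fat diet were 0.0334 for Hist1h1a and 0.0123 for Hist1h1b. Hist1h1a and Hist1h1b share no 50-base stretch with other genes, whereas Hist1h1c shares 8.54%. The replacement H1f0 was above all of these in the immunoprecipitate and in the input of both diets.

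**Figure D2:**
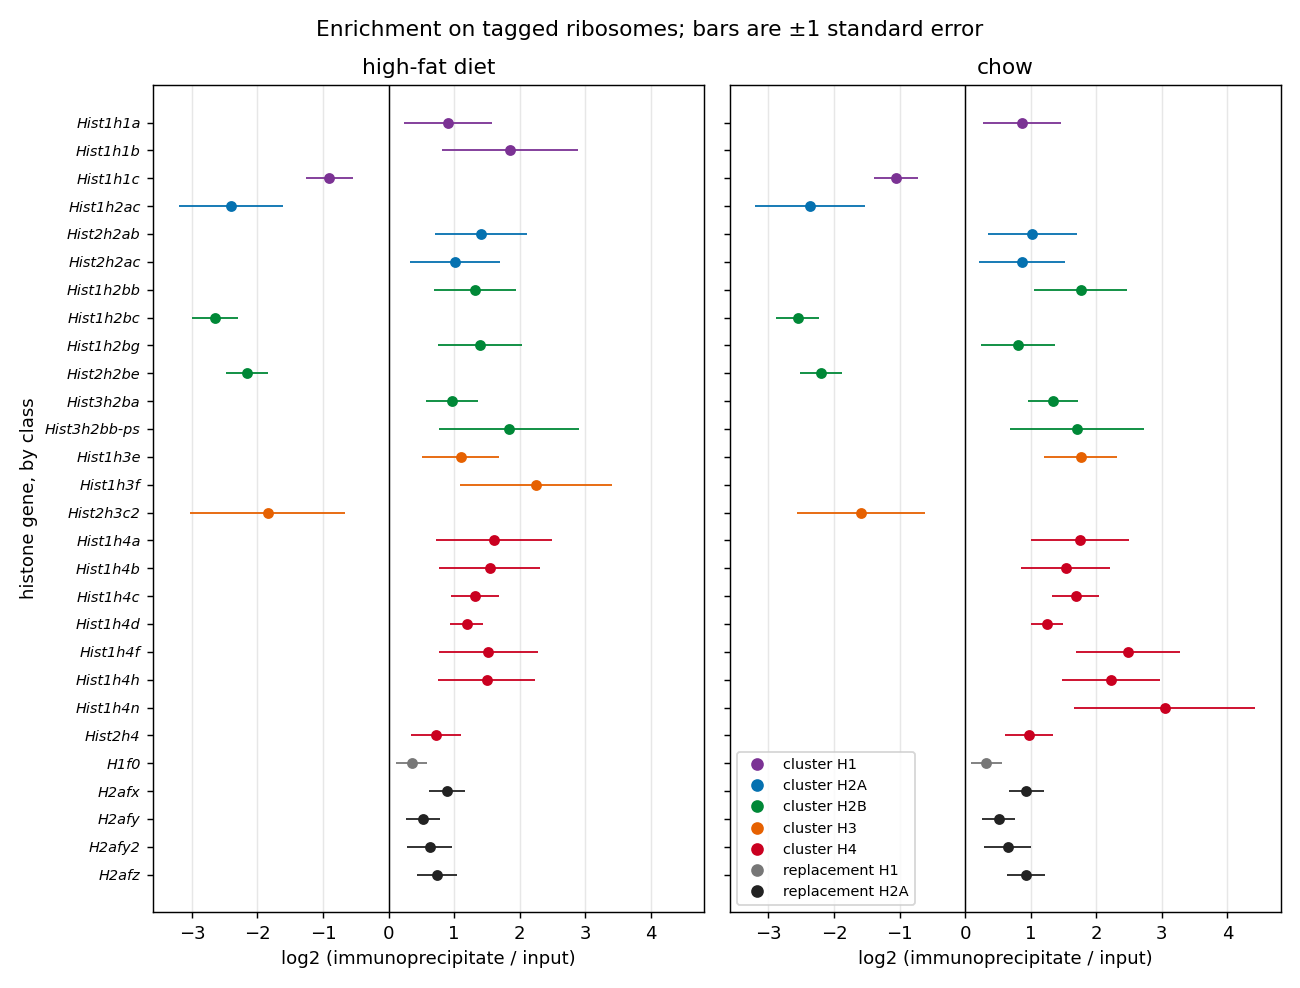
Log2 fold of immunoprecipitate over input for each listed histone gene, grouped and coloured by class, with the high-fat diet on the left and chow on the right; bars are 1 SE recovered from the deposited statistic, and a gene without a point was not listed in that diet. All listed H4 copies lie right of zero, and the depleted genes are 1 each of H1, H2A and H3 and 2 of H2B.

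Some listed neighbours went the same way and others went opposite ways. The part of position in these directions was not tested. The Hist1 cluster on chromosome 13 held 16 listed genes of 56 annotated, the listed ones lying between positions 21779883 and 23764406 (GRCm38), the Hist2 cluster on chromosome 3 held 5 of 10, and the Hist3 group on chromosome 11 held 2 of 3. Hist1h2ac and Hist1h2bc lie head to head 250 bases apart, and both were depleted. Hist2h2ac and Hist2h2be also lie head to head, 238 bases apart, and went in opposite directions in both diets. Hist1h4c, 4726 bases from the end of Hist1h2bc, was enriched, with 14.7 FPKM in the immunoprecipitate and 5.89 FPKM in the input on the high-fat diet (log2 fold 1.32, SE 0.37), and 16.7 FPKM in the IP and 5.17 FPKM in the input on chow (1.69, SE 0.36).

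The shared intervals of both head-to-head pairs are shown because they lie upstream of both genes of a pair. They are the 250 bases before the RefSeq start of the H2A gene (GRCm38.p6), read 5′ to 3′ on its strand, and each reaches the first bases of the H2B gene. Capitals mark, on either strand, the CCAAT box, the TATA box (searched as TATAAA) and the octamer element (searched as ATTTGCAT), and no marked motif overlaps another.
Hist1h2ac (with Hist1h2bc, both depleted, chr13:23683960-23684209, minus strand): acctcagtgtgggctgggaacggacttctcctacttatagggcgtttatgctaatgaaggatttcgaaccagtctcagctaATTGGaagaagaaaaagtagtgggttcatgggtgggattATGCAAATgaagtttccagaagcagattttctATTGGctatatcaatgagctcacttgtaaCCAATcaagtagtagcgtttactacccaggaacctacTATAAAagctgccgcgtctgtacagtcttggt
Hist2h2ac (enriched, with Hist2h2be depleted, chr3:96220881-96221130, minus strand): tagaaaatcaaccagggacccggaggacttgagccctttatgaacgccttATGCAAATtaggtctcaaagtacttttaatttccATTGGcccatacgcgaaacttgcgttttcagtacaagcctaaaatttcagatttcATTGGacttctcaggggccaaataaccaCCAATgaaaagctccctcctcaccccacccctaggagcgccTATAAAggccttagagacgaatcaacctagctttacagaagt
Each interval held 3 CCAAT, 1 TATAAA and 1 ATTTGCAT, so the concordant and the opposite pair had the same count of these letters. RefSeq promoters were matched for 22 of the 28 listed genes. In windows of 300 bases, CCAAT was present in 72.7% of these 22, in 81.1% of 74 histone promoters and in 37.4% of all 32851 promoters. TATAAA was present in 54.5% of the 22, 48.6% of the 74 and 13.6% of all, and ATTTGCAT, the octamer motif of H2B promoters, in 18.2%, 18.9% and 1.74%.

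The depleted copies shared a long annotated transcript, taken for each gene as the longest that codes for protein, or the longest of any type where none does. All 5 exceeded 1000 bases, with a median of 1560 and a range of 1020 to 2620. The 18 enriched cluster copies had a median of 576.5 bases, and 3 of them exceeded 1000, namely Hist1h3f, Hist1h4d and Hist2h4. Of all 23 enriched histone genes 8 exceeded 1000 bases, every listed replacement variant among them, so a long transcript was not particular to depleted genes. After the stem-loop, the annotated transcripts of the 3 depleted copies that have one went on for 377 to 2010 bases (median 840), and those of the 14 enriched copies for 23 to 1257 (median 131.5). Hist1h2bc was the spliced gene among the listed cluster copies, with 2 exons, and no stem-loop was found in its annotated transcript. A poly(A) signal, AATAAA or ATTAAA, lay in the last 50 bases of 2 of the 5 depleted transcripts, those of Hist1h1c and Hist2h2be, and of 4 of the 18 enriched ones, beside 33.7% of all annotated transcripts.

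Short genes were also set beside one another. Among listed tests with a transcript under 1000 bases, all 14 histone genes of each diet were enriched, 12 of them at least 2-fold on the high-fat diet and 11 on chow. Of all 475 such tests on the high-fat diet 53 (11.2%) were enriched at least 2-fold, and of 505 on chow 88 (17.4%). Enrichment of any size was found in 63.6% of these tests on the high-fat diet and 68.3% on chow. The limit of 1000 bases was chosen after the values were seen. Libraries were primed with both poly(T) and random primers, so mRNAs without a poly(A) tail could be copied, and the cDNA was amplified before library preparation. The parts of transcript length, tail and amplification in these folds were not tested.

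**Figure D3:**
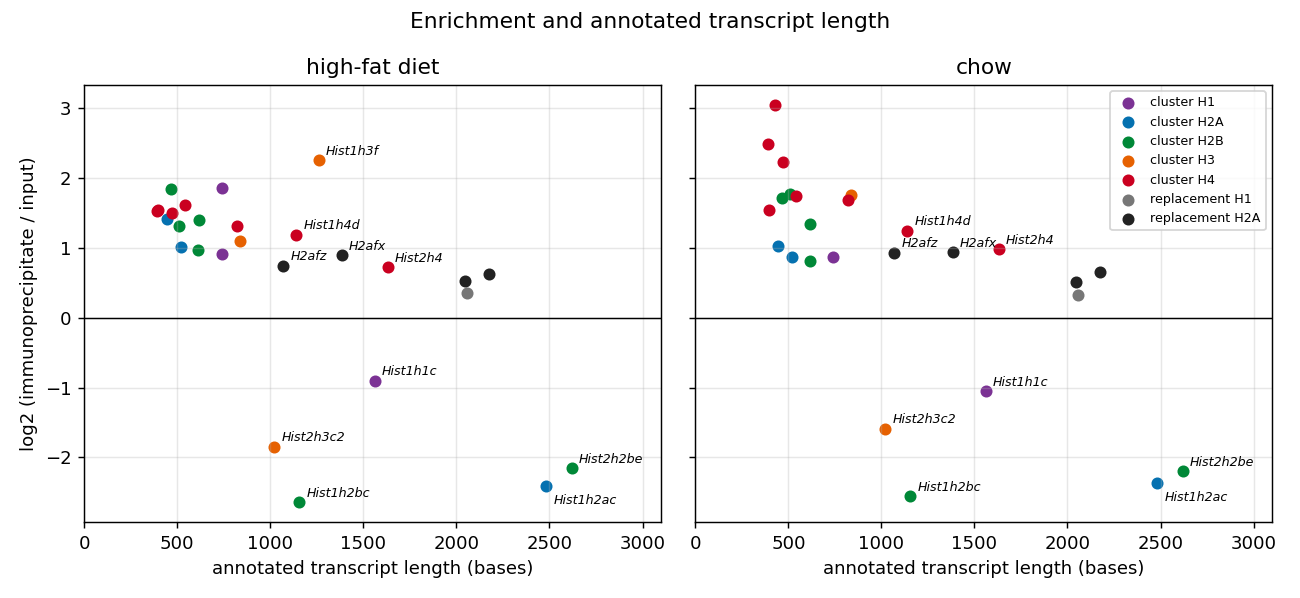
Log2 fold of immunoprecipitate over input (vertical) against annotated transcript length in bases (horizontal) for each listed histone gene, coloured by class, with the high-fat diet on the left and chow on the right. The 5 depleted genes lie between 1020 and 2620 bases, and all genes under 1000 bases lie above zero.

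Genes that handle histones and their mRNAs were taken from lists. Their counts stand beside 27% of all tests listed on the high-fat diet and 27.6% on chow, and beside 55.2% and 53.8% of the listed tests enriched. The listed share ran between 20% (S phase and proliferation) and 57.1% (H2A.Z exchange) on the high-fat diet, with 28.6% for chaperones, and between the same values on chow, with 32.1% for chaperones. Of 14 genes for histone mRNA transcription and 3′ end processing, 2 were enriched and 1 was depleted on the high-fat diet, and 3 were enriched and 3 depleted on chow. Slbp, whose protein binds the stem-loop, had 20.97 FPKM in the immunoprecipitate and 15.2 FPKM in the input on the high-fat diet (log2 fold 0.47), and 20.96 FPKM in the IP and 15.0 FPKM in the input on chow (0.48). Lsm11, a part of the U7 particle that cuts histone pre-mRNA, had a log2 fold of 0.39 on the high-fat diet. Lsm10, of the same particle, had 0.49 on chow. These folds lay near the median of all listed tests with at least 1 FPKM, 0.42 on the high-fat diet and 0.41 on chow, and that of Lsm11 lay below it. Npat, which activates histone transcription in S phase, fell by 0.51 on the high-fat diet and by 0.70 on chow on the log2 scale, and Casp8ap2 fell by 0.35 on chow.

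Of 28 histone chaperones, 7 were enriched and 1 depleted on the high-fat diet, and 6 were enriched and 3 depleted on chow. Daxx, which deposits H3.3 with Atrx, had a log2 fold of 0.79 on the high-fat diet and 0.67 on chow, and the nucleosome assembly gene Nap1l5 had 0.69 on the high-fat diet and 0.70 on chow. Nap1l5 had 928 FPKM in the immunoprecipitate and 576 FPKM in the input on the high-fat diet, and 906 FPKM in the IP and 556 FPKM in the input on chow. Ubn2, of the HIRA complex that also handles H3.3, fell by 1.86 in each diet, and Anp32e, a chaperone that removes H2A.Z, fell by 0.52 on chow. Of 14 genes in the list taken for H2A.Z exchange complexes, 7 were enriched and 1 was depleted in each diet. Actl6b, a neuronal actin-related gene in that list, had a log2 fold of 0.76 on the high-fat diet and 0.74 on chow. Whether its protein is part of these complexes was not checked. Dmap1 had 0.70 on the high-fat diet, and Znhit1 had 0.81 on chow. Ep400, the motor subunit of the TIP60 complex, fell by 1.25 on the high-fat diet and 1.62 on chow. Above that same median of all listed tests lay 5 of the 7 enriched chaperones and 5 of the 7 enriched exchange genes on the high-fat diet, and 5 of 6 and 7 of 7 on chow. Of 9 HMG and other nucleosome-binding genes, 2 were enriched and 1 depleted in each diet, with Hmga1 at 0.60 and Hmgn5 at -0.47 on the high-fat diet, and at 0.67 and -0.86 on chow.

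Of 20 genes of S phase and proliferation, 4 were listed in each diet, with 2 enriched and 2 depleted. Mcm3, a subunit of the replicative helicase, had 0.208 FPKM in the immunoprecipitate and 1.53 FPKM in the input on the high-fat diet (log2 fold -2.88), and 0.315 FPKM in the IP and 1.56 FPKM in the input on chow (-2.31). Rrm2, which makes deoxynucleotides, was depleted too, at -1.17 on the high-fat diet and -1.10 on chow. E2f1, a transcription factor of S-phase entry, was enriched at 0.69 on the high-fat diet and 0.59 on chow, and Ccne1, which encodes cyclin E1, at 0.62 on the high-fat diet and 0.86 on chow. The genes of this set that were not listed cannot be called unchanged. The part of proliferation in the folds of the cluster histone copies was not tested.

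The difference between diets was tested as the log2 fold on the high-fat diet minus that on chow, by a two-sided z-test whose p-values were adjusted by Benjamini-Hochberg over all 5149 tests listed in both tables with at least 1 FPKM. No test was called (0%), and 1 (0.0194%) had an unadjusted p under 0.05. Of 23 histone genes in this test none was called and none had an unadjusted p under 0.05. All 25 histone genes listed in both diets went the same way in both. The share of all tests listed in both diets that did so was not counted. Whether this was particular to histone genes therefore cannot be told. The smallest unadjusted p of a histone gene in this z-test was 0.376 for Hist1h4f, with a difference of -0.97 (95% interval -3.12 to 1.18, adjusted p 1). The highest difference was that of Hist1h2bg, 0.58 (-1.09 to 2.26). Of the 23 differences, 13 were below and 10 above zero, with a median of -0.05. The median SE of a difference was 0.55 log2 units for histone genes and 0.43 for all tests. A difference that was not called is therefore not shown to be absent. Hist1h2ac and Hist2h3c2 stayed under 1 FPKM and were not tested. For Hist1h1b, Hist1h3f and Hist1h4n, each listed in a single diet, the difference was not tested.

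**Figure D4:**
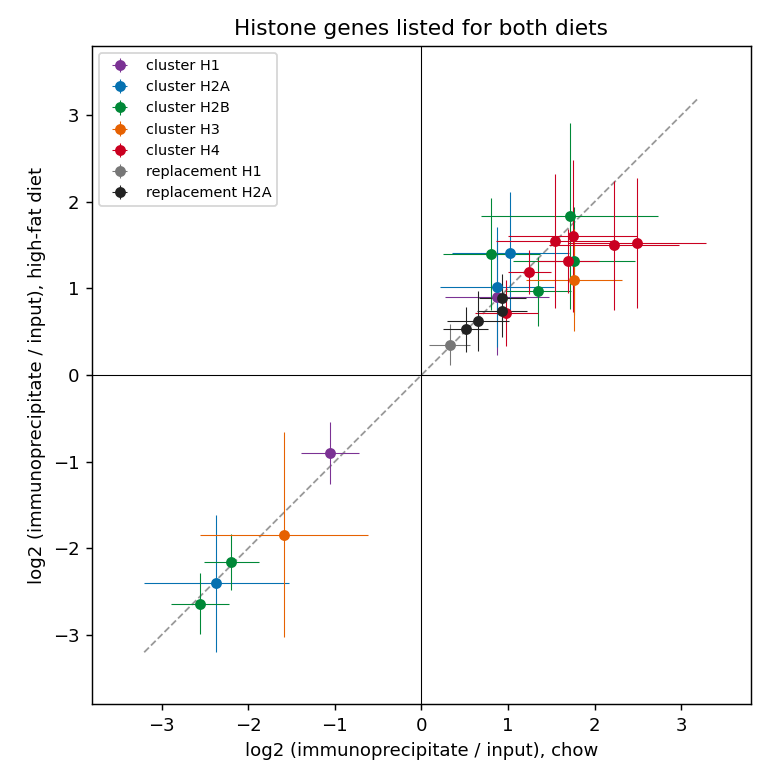
Log2 fold of immunoprecipitate over input on the high-fat diet (vertical) against that on chow (horizontal) for the 25 histone genes listed in both diets, coloured by class; bars are 1 SE and the dashed line marks equal folds. All points lie in the lower left or upper right quadrant, and Hist1h4f, the gene with the smallest p, lies at 1.52 on the high-fat diet and 2.49 on chow.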

How the data were processed

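RNA of tagged ribosomes and of whole hypothalamus was measured by sequencing in 16 libraries, 4 for each diet and fraction. Per the labels' protocols, cDNA was made with poly(T) and random primers, amplified with the Ovation RNASeq System V2 and made into libraries with Nextera XT. The submitters' processing notes name the build GRCm38.p6 and the tools Cuffdiff, Cufflinks 2.2.1, StringTie 1.3.4d and HISAT2 2.1.0. Their settings, strand of counting included, were not given in the sources used here. Per the file headers, each diet has a Cuffdiff-like table of the authors with 1 FPKM for each group. The deposited log2 fold differed from the value recomputed from FPKM by at most 1.31e-05. The deposited test statistic is a signed score, and the deposited q-value is at most 0.0499. If the q-values were adjusted over both tables together and no other comparison, the authors' p-value and q-value imply 24230 tests for each table. Of these, 6540 were listed on the high-fat diet (27%) and 6686 on chow (27.6%), after entries with the same locus and values were merged. Whether both tables were scaled together is not stated.

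Dividing each log2 fold by its deposited statistic gave its SE. The difference between diets was centred on its median and tested by a z-test with Benjamini-Hochberg adjustment (SciPy 1.17.1, pandas 2.3.3), a normal approximation. Deposited p-values were smaller than the statistic read as a normal deviate gives, by a median factor in the deviate of 1.95 on the high-fat diet and 1.96 on chow, so this test is conservative and the SEs are wide beside the deposited q-values. Transcript lengths, shared 50-base stretches and stem-loops came from GENCODE M21, and promoters from RefSeq. Named were, in each class, the genes with the highest and lowest fold and the highest level. Also named were those listed in a single diet and those of opposite direction. For other lists, the named genes were among the 2 highest and 2 lowest folds, but not every such gene was named. The enriched genes Set, Yeats4 and Hmgb3 were left out above. The remaining copies were named after their values were seen where they share a sequence or neighbour. The members and lists were chosen with earlier results of these data known. Without values per library no replicate model, library left out or depth could be given.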

Additional observations from a re-analysis of the deposited data

How the results depend on the processing

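No paired analysis was possible because the deposited tables hold no value per library, and for the same reason leaving out a replicate was not run. At a minimum of 2-fold, 17 histone genes remained called on chow, and the enriched ones numbered 14 on the high-fat diet and 12 on chow. At a minimum of 1 FPKM, 3 depleted genes were counted in each diet. Centring folds on the median of listed tests turned H1f0 to -0.0714 on the high-fat diet and -0.0855 on chow. The other folds kept their direction under centring, and 22 moved by more than their SE. With 1 FPKM added to both values, 10 of the 53 folds moved by more than their SE, among them on the high-fat diet Hist1h2ac (-0.49), Hist1h3f (0.44) and Hist2h3c2 (-0.38); with 0.1 FPKM added, 1 did. At a q-value of 0.01, 15 of the 53 folds lost their call. Chosen after seeing the data, leaving out genes that share over 50% of their 50-base stretches gave 17 enriched and 4 depleted genes on the high-fat diet and 15 and 4 on chow. The deposited span runs over 100 bases past the annotation for H1f0, H2afy, H2afy2, Hist1h4b and Hist2h2ab. Leaving these genes out gave 17 enriched and 5 depleted genes on the high-fat diet and 16 and 5 on chow. For the difference between diets, SEs rescaled to the deposited p-values gave 1 call among all tests and none among histone genes (smallest unadjusted p 0.0838, Hist1h4f, z-test). Without a minimum level or without centring, 0 tests were called, with 2 and 1 at an unadjusted p under 0.05. Depth is unknown, so low copies such as Hist1h2ac, Hist1h3f and Hist2h3c2 have no counting interval.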
